A study of Mus musculus with 12 samples.

Results

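Choroid plexus epithelium genes were followed in hippocampal RNA of 12 female mice, 4 of each phenotype. The members were 31 genes, listed for their use by this epithelium and found through the gene names of the array's probes. All 31 were on the array, with 46 of its 39429 probes and among its 29608 genes. The question was whether, in each mouse, the other members followed Ttr, which encodes transthyretin.

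The 3 phenotypes shared the MRL background. MRL/lpr mice are a model of lupus that carries the lpr mutation of Fas, and Fn14ko mice are MRL/lpr mice that also lack Fn14, the receptor of the cytokine TWEAK, after 8 generations of backcrossing. MRL/+ (MRL/MpJ) mice, the controls, carry neither change. All were females of about 12 weeks, killed at diestrus. The MRL/lpr and Fn14ko mice were littermates bred at one place and the MRL/+ mice were bought from another, and the deposited descriptions name cortex where the tissue field names hippocampus. Each of 6 two-colour arrays held 2 mice of one phenotype, the odd-numbered in Cy3 and the even-numbered in Cy5. Both arrays of a phenotype lay on 1 slide, so slide and phenotype cannot be told apart. No source says that the mice came from separate litters, so p-values cover the spread between these mice.

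The choroid plexus is a folded sheet of secretory epithelium inside the brain ventricles, with a leaky vascular core. It makes cerebrospinal fluid by moving ions, bicarbonate and water, and it secretes transthyretin, growth factors and their binding proteins. Its cells are joined by tight junctions and take up folate and other solutes from blood. The plexus of the lateral ventricle lies against the hippocampus, and transthyretin is its most familiar product.

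Probe sequences show which stretches of a gene the members' values rest on. Those printed here read as an open frame through all 60 bases, and capitals mark a stop codon at the last 3 bases. The Enpp2 probe (mm9, chr15:54670921-54670980, minus strand) and the Kcnj13 probe A_55_P2081050 (mm9, chr1:89282991-89283050, minus strand) end in such a codon. The Calml4 probe (chr9:62719231-62723312, plus strand) and the Lbp probe A_51_P454008 (chr2:158154142-158157684, plus strand) span 4082 and 3543 bases of the genome, so each crosses a splice junction.
Enpp2: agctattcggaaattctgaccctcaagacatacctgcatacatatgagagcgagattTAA
Kcnj13: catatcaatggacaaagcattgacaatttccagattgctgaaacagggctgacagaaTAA
Calml4: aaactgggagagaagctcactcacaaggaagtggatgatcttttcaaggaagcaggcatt
Lbp: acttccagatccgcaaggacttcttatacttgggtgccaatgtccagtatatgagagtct

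Promoters from RefSeq (GRCm38.p6, 250 bases before to 50 after a gene's start) were matched for 24 of the 31 members. Otx2, a homeodomain factor of choroid plexus development, is known to bind TAATCC. That word, on either strand, stood in promoters of 3 of the 24 members, Ace, Igf2 and Otx2, and in those of 8.14% of all 27025 genes. The word TAATTG, bound by Msx1, stood in promoters of 4 of the 24, Cab39l, Kcnj13, Otx2 and Tmem72, against 9.22% of all genes. Both TAATCC matches before the start are given with 10 bases on each side, in the direction of the gene, with the word or its reverse complement in capitals (Ace chr11:105967911-105967936, plus strand, and Otx2 chr14:48665305-48665330, minus strand).
Ace: ctgggttttaTAATCCgcagggcggt
Otx2: tgtgcccctcGGATTAtctcgttagt

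Levels are background-subtracted intensities divided by the median of their channel over the spots valid in all 12 mice, and are called channel medians here. Of the 31 members, 12 had a spot valid in all 12 mice (foreground at least 2 times background, no outlier flag) and the other 19 were taken from a table with no such filter, in which a level under 0.01 was set to 0.01. The array of MRL/lpr mice 3 and 4, the weak array, had a median foreground of 1.93 and 1.73 times background, against 4.42 to 12.6 in the other 10 channels. Negative-control spots lay at 0.00136 to 0.0275 channel medians in MRL/lpr mice 1 and 2 and in all Fn14ko mice, at 0.0721 and 0.341 on the weak array, and at 0.255 and 0.187 in MRL/+ mice 2 and 4. In those last 4 mice 9 or 10 of the 31 members had a probe well above background, against 18 to 31 in the other 8. The level of a dim member there is therefore near that of an empty spot. Of 12 markers of hippocampal neurons, 5 to 12 were well above background in every mouse.

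Ttr was well above background in all 12 mice. Its level was 33.4, 10, 2.13 and 15.2 channel medians in MRL/lpr mice 1 to 4. In Fn14ko mice it was 4.61, 0.663, 0.627 and 0.297, and in MRL/+ mice 0.940, 1.5, 0.754 and 0.997. Every MRL/lpr mouse was above every MRL/+ mouse, whereas Fn14ko mouse 1 was above MRL/lpr mouse 3. Ttr rose in MRL/lpr by 3.33 on the log2 scale against MRL/+ (SE 0.876, adjusted p = 0.0399, limma; exact permutation p = 0.0286, the smallest that 4 against 4 mice can give) and by 3.55 against Fn14ko (SE 0.876, adjusted p = 0.0454, limma; exact permutation p = 0.0571). The permutations exchanged single mice as if independent and left array and dye out of account, so their p-values do not allow for mice that shared an array. Fn14ko differed from MRL/+ by -0.22 (SE 0.876, adjusted p = 0.943, limma). With array as a random block, the adjusted p of the rises was 0.303 and 0.278, and that block ended the other members' calls in the 12-mouse fit too, with adjusted p = 0.164 to 0.314 (limma). Without any 1 of MRL/lpr mouse 4, Fn14ko mice 2, 3 and 4 and the 4 MRL/+ mice, neither rise passed the limma test, the adjusted p reaching 0.114 against MRL/+ and 0.163 against Fn14ko.

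**Figure D1:**
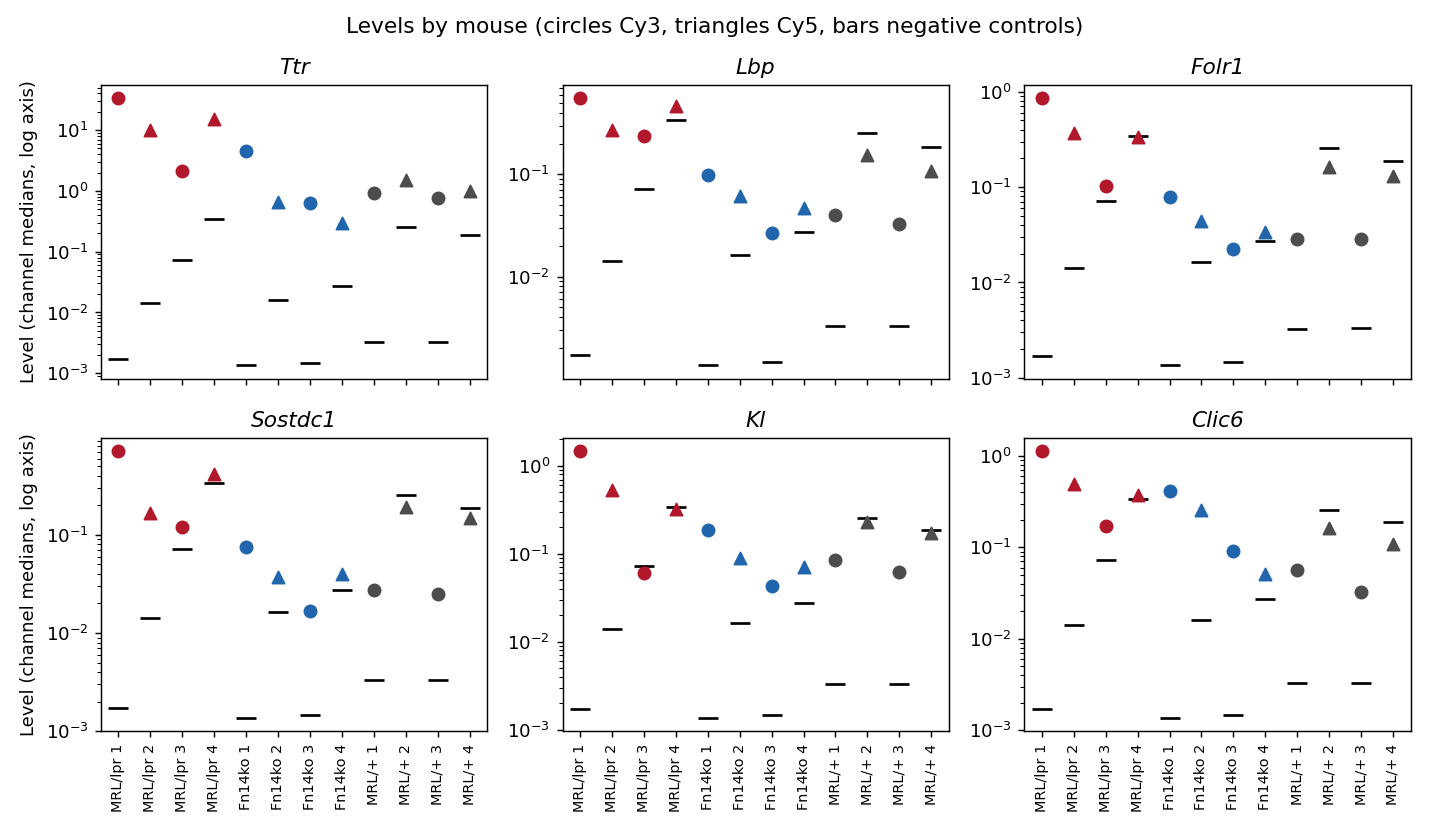
Level of 6 members in each mouse, in channel medians on a log axis, 1 panel per gene. Circles are Cy3 and triangles Cy5, red is MRL/lpr, blue Fn14ko and grey MRL/+, and black bars are the negative-control level of that channel. Ttr stands clear of the bars in all 12 mice, whereas the other 5 genes lie close to them, or under, in MRL/lpr mouse 4 and MRL/+ mice 2 and 4.

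Among the secreted and membrane proteins, Lbp, the lipopolysaccharide-binding protein, was called against both other phenotypes. Its level was 0.556, 0.274, 0.239 and 0.470 in MRL/lpr mice, 0.0996, 0.0618, 0.0264 and 0.0466 in Fn14ko mice and 0.0405, 0.154, 0.0330 and 0.109 in MRL/+ mice. All MRL/lpr mice were above all others, although the probe was not well above background in MRL/lpr mice 3 and 4 nor in MRL/+ mice 2 and 4. Lbp rose in MRL/lpr by 2.39 against MRL/+ (SE 0.645, adjusted p = 0.0430) and by 2.78 against Fn14ko (SE 0.645, adjusted p = 0.0392). Of the 12 fits that left out 1 mouse, 1 kept the first of these calls, that without MRL/lpr mouse 2, and 3 kept the second. A second Lbp probe was well above background in no mouse.

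Folr1, the folate receptor that carries folate across the epithelium, was at 0.852 and 0.368 in MRL/lpr mice 1 and 2 and at 0.102 and 0.339 in mice 3 and 4. Its level was 0.0793, 0.0437, 0.0223 and 0.0340 in Fn14ko mice and 0.0283, 0.161, 0.0287 and 0.132 in MRL/+ mice. MRL/lpr and Fn14ko mice did not overlap, and Folr1 rose by 3.00 between them (SE 0.715, adjusted p = 0.0282). Against MRL/+ the groups overlapped and the difference was 2.32 (SE 0.715, adjusted p = 0.100).

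Sostdc1, a secreted antagonist of BMP and Wnt signals, was at 0.713, 0.166, 0.119 and 0.417 in MRL/lpr mice. In Fn14ko mice it was at 0.0754, 0.0373, 0.0168 and 0.0397, and in MRL/+ mice at 0.0274, 0.191, 0.0247 and 0.150. The MRL/lpr mice were all above the Fn14ko mice and overlapped the MRL/+ mice in Cy5. The difference from Fn14ko was 2.90 (SE 0.761, adjusted p = 0.0393) and that from MRL/+ 2.06 (SE 0.761, adjusted p = 0.155).

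The ion and water transport members included Kcne2, a potassium channel subunit of the apical membrane. It was at 0.326, 0.0723, 0.142 and 0.312 in MRL/lpr mice and at 0.0190, 0.0115, 0.01 and 0.0127 in Fn14ko mice. Only 3 mice, MRL/lpr 1 and 2 and Fn14ko 1, had it well above background, and its adjusted p against Fn14ko was 0.0235 for a difference of 3.80 (SE 0.864), which therefore rests on 1 Fn14ko and 2 MRL/lpr mice with a measured level. MRL/lpr mouse 4, at 0.312, lay under its negative controls at 0.341. No MRL/+ mouse had it well above background, and MRL/lpr did not pass the test against MRL/+ (adjusted p = 0.124).

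Aqp1, the apical water channel, was at 0.191, 0.0694, 0.149 and 0.225 in MRL/lpr mice, 0.0203, 0.0292, 0.0151 and 0.0290 in Fn14ko mice and 0.0143, 0.154, 0.0150 and 0.126 in MRL/+ mice. It rose by 2.69 against Fn14ko (SE 0.758, adjusted p = 0.0496), a call lost without the weak array, where the difference was 2.26 (adjusted p = 0.0879). Calml4, a calmodulin-like protein, was at 0.310, 0.137, 0.177 and 0.348 in MRL/lpr mice, 0.0852, 0.0313, 0.0166 and 0.0223 in Fn14ko mice and 0.0185, 0.167, 0.0302 and 0.134 in MRL/+ mice. It rose by 2.84 against Fn14ko (SE 0.749, adjusted p = 0.0399), a call also lost without the weak array, on which it was not well above background (2.62, adjusted p = 0.0745). For both genes MRL/lpr mouse 2 lay below MRL/+ mouse 2, and the differences from MRL/+, 1.69 and 1.93, had adjusted p = 0.245 and 0.175. Aqp1 was not well above background in MRL/lpr mice 3 and 4, Fn14ko mice 2 and 4 or MRL/+ mice 2 and 4. Nor was Calml4, save in Fn14ko mouse 2.

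Cldn2, a claudin of the leaky tight junction, was at 0.0710, 0.0503, 1.18 and 1.82 in MRL/lpr mice, 0.0133, 0.0139, 0.01 and 0.0208 in Fn14ko mice and 0.01, 0.186, 0.01 and 0.125 in MRL/+ mice. Both mice of the weak array were above the other 10. The difference from Fn14ko was 4.40 (SE 1.17, adjusted p = 0.0413) with the weak array and 2.44 (adjusted p = 0.0925) without it. Of the Fn14ko mice, only mouse 1 had it well above background. No MRL/+ mouse had, MRL/lpr mice 1 and 2 lay below MRL/+ mice 2 and 4, and the difference from MRL/+ did not pass the test with the weak array (adjusted p = 0.189) or without it (1.15, adjusted p = 0.296).

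Of all 31 members, 2 were called higher in MRL/lpr than in MRL/+ (Ttr and Lbp) and none lower. They were 2 of the 12 members of the filtered table, against 3.46% of its 8864 genes called higher and 5.71% lower, and 0 of the 19 others, against 0.77% and 1.69% of all genes. Against Fn14ko, 8 members were called higher and none lower: 2 of 12 in the filtered table, against 2.21% of genes called higher and 1.77% lower, and 6 of 19 in the table of all spots, against 5.37% and 1.46%. Fn14ko and MRL/+ gave 0 calls, against 0.0451% of genes called higher and 0.474% lower in the filtered table and 0.0169% and 0.128% in the other, with an unadjusted p under 0.05 for 2 of the 12 members, against 15.3% of genes, and 1 of the 19, against 8.51%. The median difference over the 31 members was 1.59 against MRL/+, 2.35 against Fn14ko and -0.76 between Fn14ko and MRL/+. Over all genes of the filtered table it was -0.01, 0.03 and -0.16, and over the table of all spots 0.21, 1.34 and -0.97. These 3 comparisons share samples.

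The calls changed with the mice and the block in the fit. With array as a random block, where mice of an array had an estimated correlation of 0.71, the counts of 2 and 8 both became 0. Against Fn14ko, leaving out Fn14ko mouse 2, 3 or 4 left 0 members called, and leaving out MRL/lpr mouse 4 left 1, Folr1. Over the 12 fits that left out 1 mouse, Folr1 lost this call in 3, Kcne2 in 4, Calml4 in 7, Ttr and Sostdc1 in 8, Lbp in 9, Cldn2 in 10 and Aqp1 in 11. Without MRL/lpr mouse 1, members were called lower as well, 2 against MRL/+ beside 3 higher and 3 against Fn14ko beside 11 higher.

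MRL/lpr and MRL/+ mice did not overlap for 3 members, all higher in MRL/lpr: Ttr and Lbp among the 12 filtered members, against 4.58% of genes, and Clic6 among the other 19, against 1.81%. MRL/lpr and Fn14ko mice did not overlap for 16, again all higher in MRL/lpr, of which 5 were among the 12, against 11.2% of genes, and 11 among the 19, against 13.5%. Igf2 and Slc4a2 were lower in every Fn14ko than in every MRL/+ mouse, a pattern of 8.39% of genes in the table of all spots and 14.1% in the filtered one.

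Leaving out the weak array, an alternative that leaves MRL/lpr with 2 mice of 1 array, gave 9 members higher than in MRL/+. All 9 were among the 26 members with a spot valid in those 10 mice, against 6.11% of 17936 genes. Ttr rose by 4.34 (SE 0.728, adjusted p = 0.00339), Kl, the hormone co-receptor klotho, by 3.04 (adjusted p = 0.00710), and Clic6, an intracellular chloride channel protein, by 3.47 (adjusted p = 0.0148). Folr1, Sostdc1 and Lbp rose by 3.28, 3.24 and 2.66. The monoamine transporter gene Slc29a4 rose by 1.83, the sulfate transporter gene Slc13a4 by 1.47 and Enpp2, which encodes autotaxin, by 0.81. Slc13a4 and Enpp2 had differences of -0.40 and -0.81 with all 12 mice, being low on the weak array: Enpp2 was at 1.04 and 2.29 there and between 6.41 and 18.3 elsewhere.

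Against Fn14ko, 9 members were higher without the weak array, 8 of the 26, against 4.09% of genes, and Kcne2 among the other 5, against 6.01%. Igf2 and the bicarbonate exchanger gene Slc4a2 were lower in Fn14ko than in MRL/+, by -1.77 (adjusted p = 0.00920) and -0.73 (adjusted p = 0.0157), among 11.1% of genes called lower. Igf2 encodes a growth factor that choroid plexus and meninges both secrete. Its level was 0.633 and 0.291 in MRL/lpr mice 1 and 2, 0.0457 to 0.138 in Fn14ko and 0.234 to 0.531 in MRL/+.

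**Figure D2:**
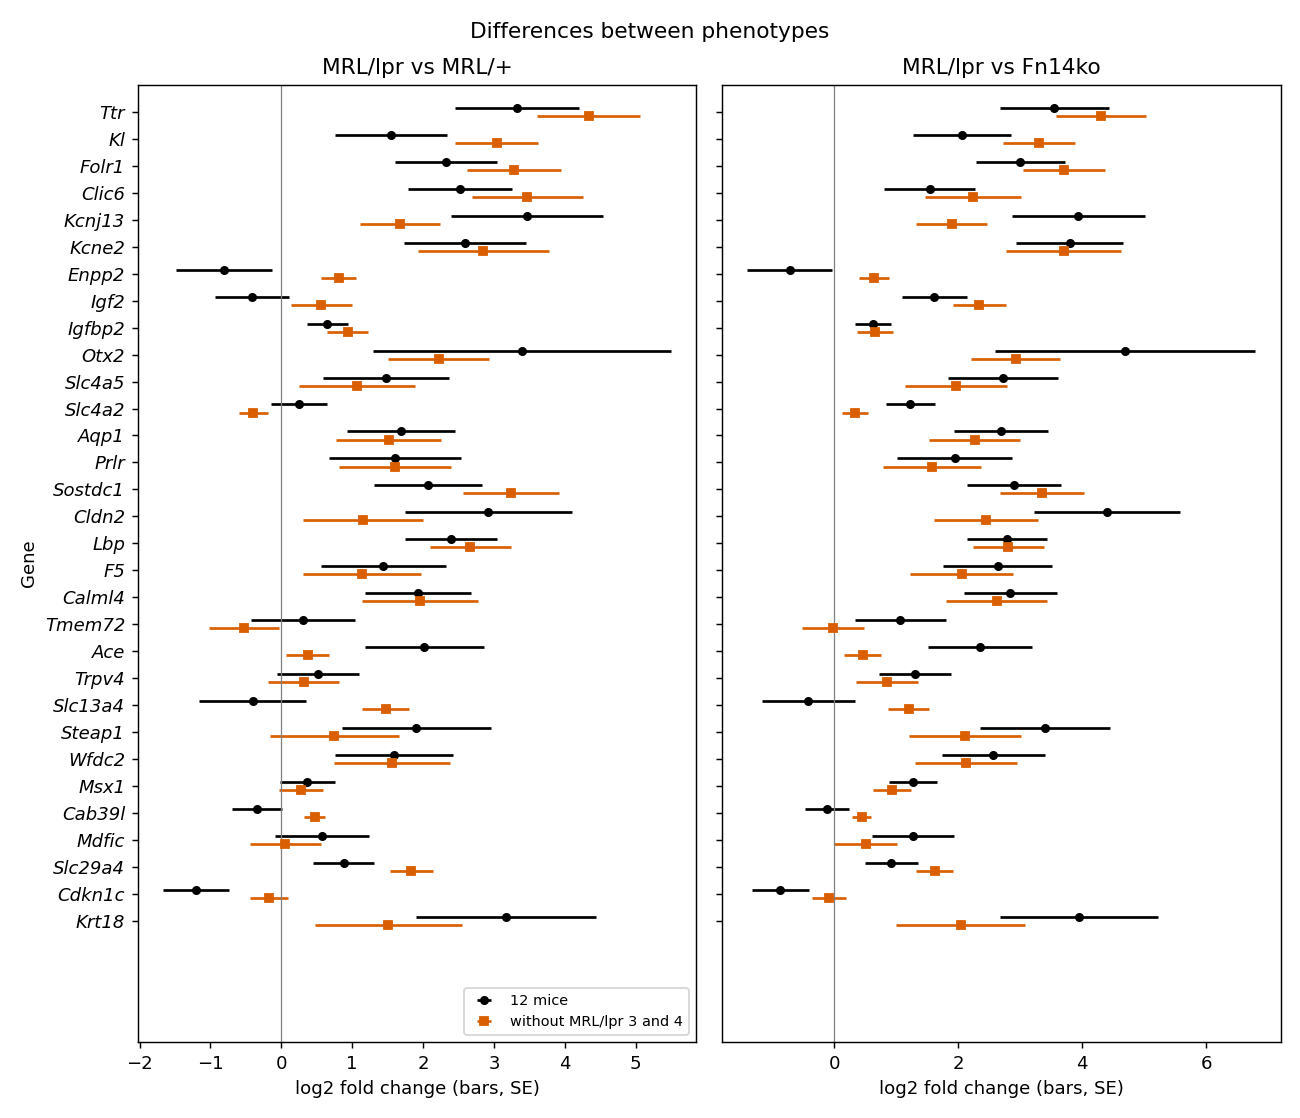
Difference in log2 level (points) with its SE (bars) for each member, MRL/lpr against MRL/+ on the left and against Fn14ko on the right. Black circles use 12 mice and orange squares leave out MRL/lpr mice 3 and 4. Without those mice Ttr, Kl, Clic6 and Enpp2 move to the right, and Otx2, Cldn2, Kcnj13, Ace and Krt18 to the left.

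Taking single mice against mice of the same dye showed how far the members followed Ttr in each. These ratios are descriptions with no test, over members well above background in the first mouse. The mean of reference mice was taken over their log2 levels. References were MRL/+ mice for MRL/lpr mice 1 and 3 and Fn14ko mice for MRL/lpr mice 2 and 4, so these ratios are not alike in reference. Fn14ko mouse 1, in Cy3 with Ttr at 4.61, was in no reference. Where a reference mouse did not have the gene well above background, the ratio is given as a bound, against the lowest level well above background on that channel or the measured level where higher. In MRL/lpr mouse 1, Ttr was 39.6-fold the mean of MRL/+ mice 1 and 3, and 29 of the other 30 members were higher, 25 of them at least 2-fold, against 16.4% of genes. Folr1, Sostdc1, Clic6 and Kl were 29.9-, 27.4-, 26.4- and 20.3-fold higher, Kcne2, which neither reference mouse had well above background, at least 32.6-fold, Enpp2 2.42-fold and Cdkn1c 1.34-fold. Slc4a2 alone was lower, at 0.860-fold. The median of the 30 was 7.39-fold and that of all genes 1.11-fold, and 29 of 19717 genes were at or above Ttr's ratio, Ttr among them.

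In MRL/lpr mouse 2, Ttr was 22.6-fold the mean of Fn14ko mice 2 and 4. Of the 29 other members measured, 25 were higher, 17 at least 2-fold, against 14.1% of genes. With bounds for the members that a reference mouse did not have well above background, 11 of the 29 were at least 2-fold higher, against 10.7% of genes. Kl, Lbp and Clic6, measured in both reference mice, were 6.69-, 4.45- and 4.37-fold higher. Folr1 was at least 8.47-fold higher, Otx2 at least 5.38-fold, Calml4 at least 3.73-fold and Kcne2 at least 2.20-fold.

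In Fn14ko mouse 1, Ttr was 7.36-fold its level in Fn14ko mouse 3, and 23 of 30 members were higher, 11 at least 2-fold, against 5.5% of genes. The 11 were Prlr (5.33-fold), the gene of the prolactin receptor, Calml4 (5.13), Krt18 (5.01), a keratin of simple epithelia, Otx2 (4.85), Clic6 (4.57), Sostdc1 (4.50), Kl (4.27), Folr1 (3.55), Lbp (3.01), Slc29a4 (2.16) and Wfdc2 (2.10). The ratios of Prlr and Otx2 are of means of 2 probes that disagreed. In Fn14ko mice 1 and 3, Prlr was at 0.145 and 0.0109 by A_66_P139387 and at 0.0424 and 0.0242 by A_52_P458279. Otx2 was at 0.144 and 0.0160 by A_55_P1978571 and at 0.0153 and 0.0168 by A_55_P2049052. Enpp2, Igfbp2 and Slc13a4 were between 0.809- and 0.983-fold, so the members that moved with Ttr were not all 31. In Fn14ko mouse 2, with Ttr at 2.23-fold its level in mouse 4, 13 of 21 members were higher and 1 at least 2-fold, Clic6 at 5.00-fold, against 0.911% of genes.

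The MRL/+ mice differed little in Ttr. Its ratio was 1.25 between mice 1 and 3, where 14 of 26 members were higher and 0 at least 2-fold, against 0.49% of genes. Between mice 2 and 4 it was 1.5, with 3 of 8 members higher and 0 at least 2-fold, against 0.369%. Fn14ko mouse 3, with Ttr at 0.745-fold the mean of MRL/+ mice 1 and 3, had 8 of 26 members higher and 1 at least 2-fold, against 3.92% of genes.

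On the weak array, Ttr was 2.53-fold the mean of MRL/+ mice 1 and 3 in MRL/lpr mouse 3 and 34.2-fold the mean of Fn14ko mice 2 and 4 in mouse 4. Only 9 and 8 other members were well above background there, of which 6 and 6 were at least 2-fold higher, against 41.4% and 54.4% of genes. In both mice these were Otx2, Cldn2, Krt18, Kcnj13, Ace and Slc4a2. Kl, at 0.0600 and 0.326, and Folr1 were not well above background, against negative controls at 0.0721 and 0.341, so whether they followed Ttr in these mice was not detectable.

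**Figure D3:**
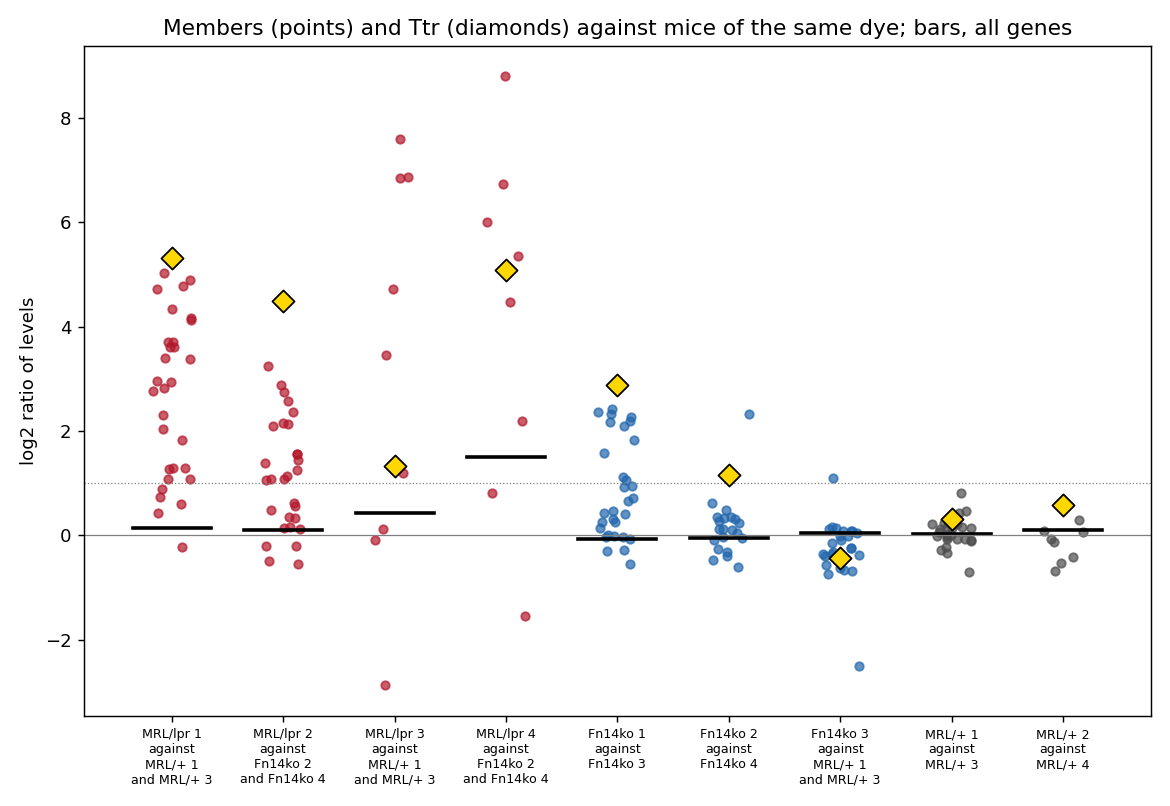
Log2 ratio of a mouse's level to that of mice of the same dye, which are named under each column. Points are members well above background in the first mouse, with reference levels as measured or at the floor and no bounds applied, gold diamonds Ttr, thick bars the median of all genes, and the dotted line marks 2-fold. In MRL/lpr mice 1 and 2 and Fn14ko mouse 1 most points lie above the bar and under the diamond.

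Probes of the same gene disagreed on the weak array. Otx2 probe A_55_P1978571 was at 0.626 and 0.326 in MRL/lpr mice 1 and 2, 0.119 and 0.266 on the weak array and 0.144 in Fn14ko mouse 1, and at 0.0160 to 0.0268 in the other Fn14ko mice. Probe A_55_P2049052, the only one valid in all 12 mice and hence the source of Otx2's value in the 12-mouse fit, was at 10 and 21.1 on the weak array and at 0.0119 to 0.120 elsewhere. Its sequence contains the Otx2 promoter match printed above, 211 bases before that start, so it lies outside transcripts from that start. Which transcript it reads, if any, was not tested. Kcnj13, an inward-rectifier potassium channel gene, was at 3.40 and 5.46 there by the probe printed above and at 0.0593 and 0.312 by its other probe, although both gave 0.731 and 0.640 in MRL/lpr mouse 1. The probes of Cldn2 gave 2.29 and 3.33 against 0.0628 and 0.312. Ace, at 1.91 and 2.29, and Krt18, at 1.37 and 1.52, have 1 probe each and were at most 0.323 and 0.207 in the other 10 mice.

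**Figure D4:**
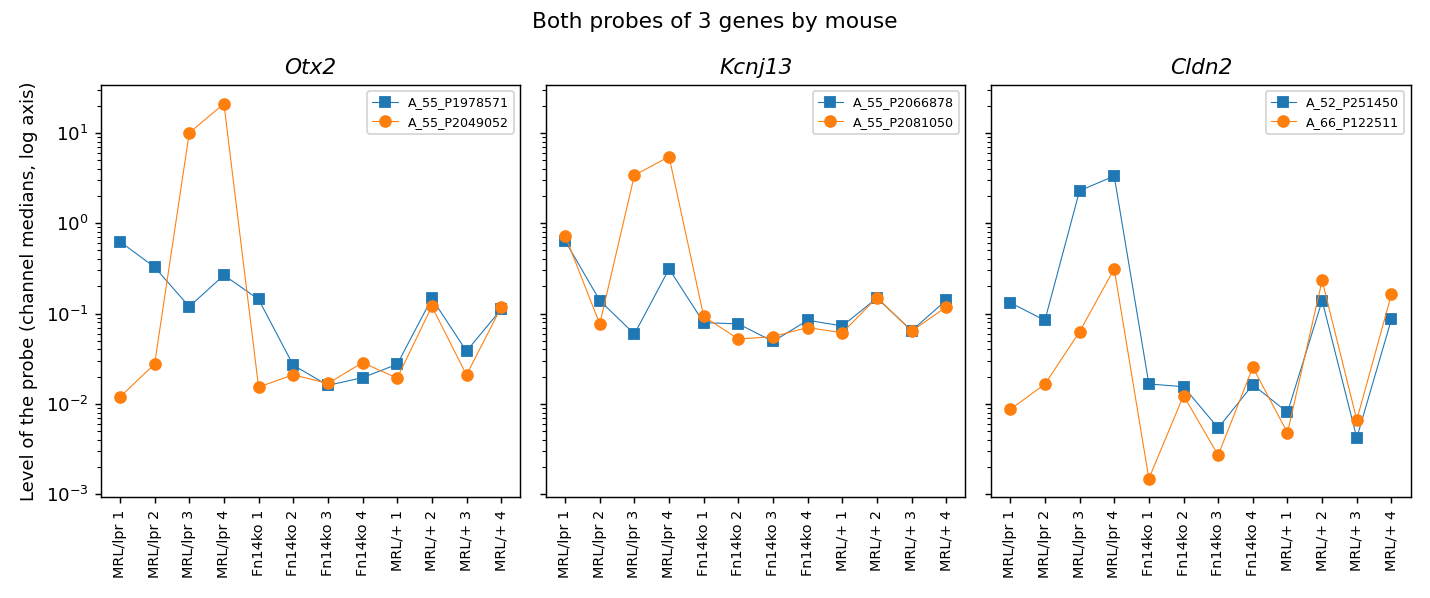
Level of each of the 2 probes of Otx2, Kcnj13 and Cldn2 in each mouse, in channel medians on a log axis. The probes part on the weak array, MRL/lpr mice 3 and 4, where 1 probe of each gene stands above 2 and the other stays under 0.4.

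Across mice, each member was also fitted on log2 Ttr with phenotype and dye as further terms. No member's slope passed the test, against 0.0% of the genes of either table, and an unadjusted p under 0.05 was found for 1 of the 11 filtered members, against 2.23% of genes, and 8 of the other 19, against 3.23%. Slopes were above 0 for 24 of 30 members, with a median of 0.23, against -0.002 and -0.04 over all genes of the filtered table and of the table of all spots. The steepest above 0 were those of Kl (0.83, SE 0.154), Clic6 (0.74, SE 0.154) and Folr1 (0.66, SE 0.172), on the scale where 1 means a change in proportion to Ttr. That of Otx2, at -0.86 (SE 0.703), was larger in size and ran against Ttr. It rests on probe A_55_P2049052 alone, at 10 and 21.1 on the weak array and at most 0.120 elsewhere. Without the weak array, where both Otx2 probes were averaged, its slope was 0.84 (SE 0.167, adjusted p = 0.158, limma).

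Over the 12 mice, Pearson's r of log2 levels with Ttr had a median of 0.52 over the 11 filtered members and 0.04 over all 8863 other genes. Lbp had rank 3 among them, at 0.88. The others of the leading 6 were Mia (0.91), which is also on the list of ependymal genes read below, Crispld2 (0.89), Sema5a (0.86), the complement gene C3 (0.86) and a transcript with no gene symbol (0.86). Over the 10 mice outside the weak array, the median was 0.63 for 25 members and -0.10 for 17935 genes, and 8 members reached 0.8, Kl, Sostdc1, Cab39l, Lbp, Slc29a4, Folr1, Clic6 and Otx2, as did 0.792% of genes. These points share arrays and dyes. Leaving out MRL/lpr mice 1 and 2, the farthest from the median and the only MRL/lpr mice among the 10, took the members' median to 0.13. Over the 12 mice, leaving out MRL/lpr mice 1 and 4, the farthest there, took it from 0.52 to 0.15.

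**Figure D5:**
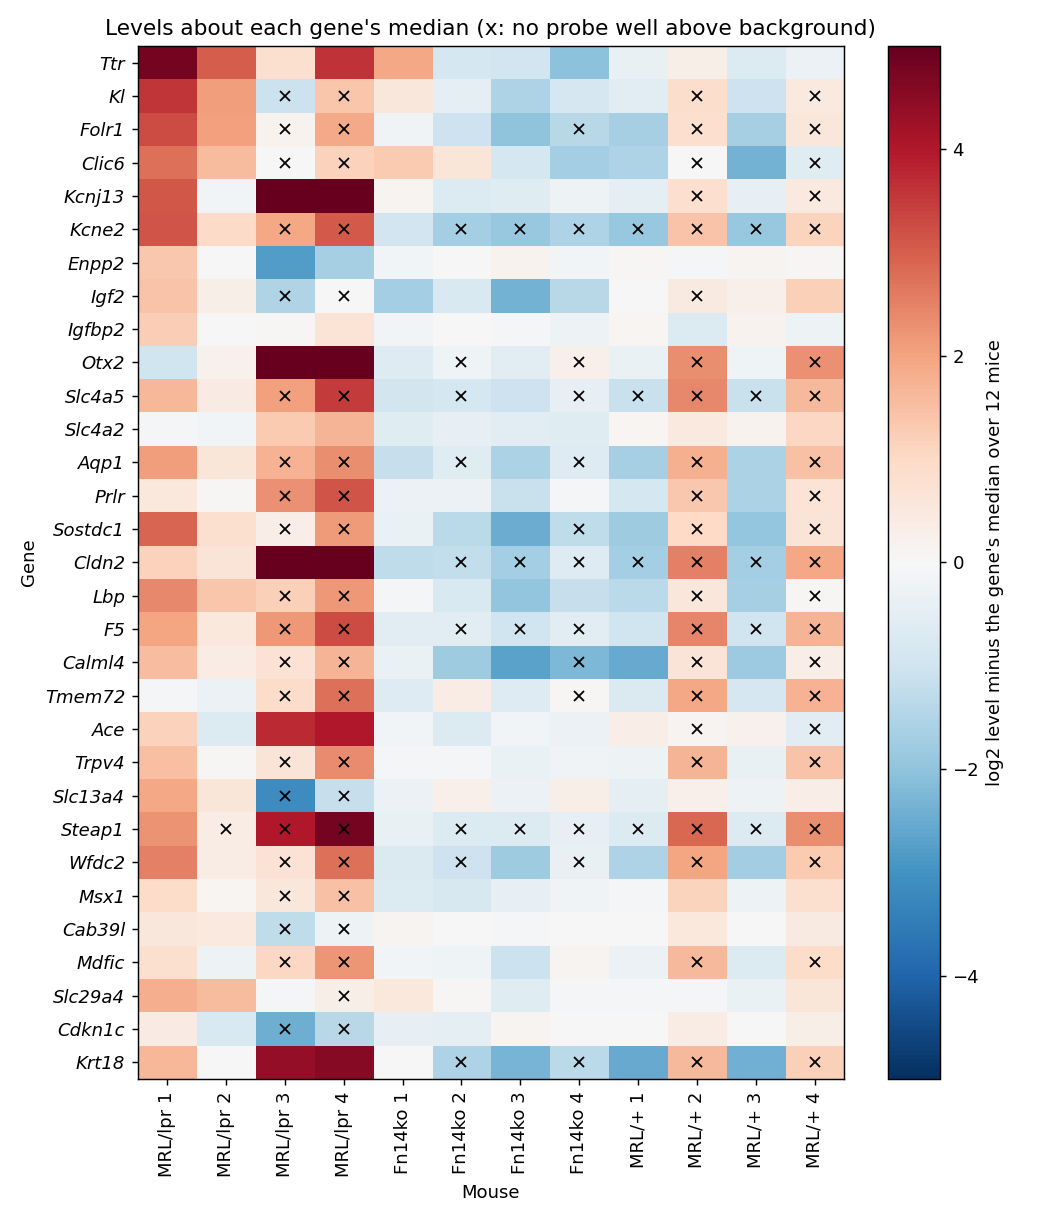
Log2 level of the 31 members in each of 12 mice, minus the gene's median over the mice, with colours ending at 5 in either direction. Crosses mark mice with no probe of the gene well above background, which crowd into MRL/lpr mice 3 and 4 and MRL/+ mice 2 and 4. MRL/lpr mouse 1 is above the median for 28 members, and MRL/lpr mouse 4 and MRL/+ mice 2 and 4, channels with high negative controls, for 27 each.

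Of 24 other choroid plexus genes on the array, Htr2c alone was higher in MRL/lpr than in MRL/+, by 1.34 (SE 0.348, adjusted p = 0.0379), and Slc16a8 alone against Fn14ko, by 2.76 (SE 0.752, adjusted p = 0.0443). Of all genes of their tables, 3.46% and 5.37% were called so. Htr2c, a serotonin receptor that neurons also make, was at 0.289 to 0.567 in MRL/lpr, 0.229 to 0.467 in Fn14ko and 0.136 to 0.212 in MRL/+ mice, with a slope on Ttr of -0.03. Without the weak array, Car12, a carbonic anhydrase, and Rdh5 were higher than in MRL/+, by 1.74 and 1.89 (adjusted p = 0.00141 and 0.0033), against 6.11% of genes. In that limma fit 5 of the 24 were higher in Fn14ko than in MRL/+ mice. They were Car12 (0.81, adjusted p = 0.0217), Rdh5 (0.86, adjusted p = 0.0390), Htr2c (1.36, adjusted p = 0.0111), Vat1l (1.22, adjusted p = 0.0229) and Ezr (0.62, adjusted p = 0.0294), which encodes the membrane linker ezrin. Slc5a5 was lower (-0.85, adjusted p = 0.0232), as were 11.1% of genes. In MRL/lpr against Fn14ko, Car12 was higher (0.93, adjusted p = 0.0424), against 4.09% of genes, and Ezr was lower (-0.83, adjusted p = 0.0351). The median difference of the 24 from MRL/+ was 0.71 with 12 mice and 0.35 with 10.

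Marker genes of other cells and regions were read in the same mice. For every list, fewer genes were well above background in MRL/lpr mice 3 and 4 and MRL/+ mice 2 and 4 than in any other mouse. The summed level of 12 ependymal genes was 2.50 to 4.82 in MRL/lpr, 0.837 to 2.22 in Fn14ko and 0.773 to 2.49 in MRL/+ mice, with 0 of 12 called by limma in the 12-mouse fit. The 2.50 and 4.82 were those of MRL/lpr mice 3 and 4, each with 1 of the 12 well above background. MRL/lpr mice 1 and 2, with 12 and 11, summed to 3.86 and 3.38. The 2.49 was that of MRL/+ mouse 2, with 2 of the 12. At an unadjusted p under 0.05 there were 4 ependymal genes against MRL/+ and 10 against Fn14ko. The share of all genes at that p is not given here, but 63.7% and 76.2% of all genes lay above 0 in the table of all spots. Without the weak array 4 ependymal genes were called higher than in MRL/+ and 4 higher than in Fn14ko. Of all genes with a spot valid in those 10 mice, 6.11% and 4.09% were called so. The summed level of 12 meningeal and fibroblast genes was 5.13 to 17.6, 3.84 to 4.73 and 3.93 to 5.15, with Dcn and Ogn higher in MRL/lpr than in either other phenotype. Against MRL/+ and Fn14ko, 3.46% and 2.21% of genes of the filtered table were called higher, and 0.77% and 5.37% of the table of all spots. Without the weak array, 7 and 6 of the 12 meningeal and fibroblast genes were called higher in MRL/lpr than in MRL/+ and Fn14ko, as were 5 and 6 of the 6 blood genes and 8 and 9 of the 12 hippocampal neuron genes, beside 9 and 9 of the 31 members and the 6.11% and 4.09% of genes above. For the blood genes the sum was 193 and 158 in MRL/lpr mice 1 and 2, 42.7 and 16.8 in mice 3 and 4 and 28.1 to 94.7 in the other phenotypes. The 12 hippocampal neuron genes summed to 17.2 to 24.1 in MRL/lpr and to 8.45 to 11.8 in the others, and 10 striatal genes to 4.09 to 6.23 in MRL/lpr, 10.2 to 28.3 in Fn14ko and 5.95 to 10.3 in MRL/+. In the 12-mouse fit, 6 and 8 of the hippocampal neuron genes were called higher in MRL/lpr than in MRL/+ and Fn14ko, beside 2 and 8 of the 31 members. Of the striatal genes, 1 and 5 were called lower, against 5.71% and 1.77% of genes of the filtered table and 1.69% and 1.46% of the table of all spots. Among the 6 blood genes 0 were called. Endothelial genes, 9 in all, had 0 calls by limma in the 12-mouse fit (1 and 5 at an unadjusted p under 0.05 against MRL/+ and Fn14ko), with sums of 5.42 to 7.74, 7.98 to 12.6 and 7.12 to 9.58, and 10 thalamic and habenular genes summed to 1.96 to 7.09, 1.89 to 2.87 and 2.24 to 4.08. The 7.09 was that of MRL/lpr mouse 4, with 3 of the 10 well above background, and MRL/lpr mice 1 and 2 summed to 1.96 and 2.12. The part of these lists' cells and regions in the sums cannot be read where most genes lie near negative controls. The part of these cells and regions in the members' values was not tested, and in such bulk RNA the number of epithelial cells and the RNA per cell cannot be told apart.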

How the data were processed

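The authors extracted total RNA from the hippocampus, labelled it with Cy3 or Cy5 and scanned Agilent 60-base arrays with Agilent Feature Extraction (version 12.1.0.3 per the file headers). The files they deposited give an intensity for each spot and dye, linear and without normalization across channels, and probe positions in mm9. Mean foreground minus median local background was used, with the software's processed signal as an alternative. Spots with an outlier flag or a foreground under 2 times background were dropped, leaving 10877 probe spots of 8864 genes in all 12 samples. Levels were scaled to the channel's median of these spots, then averaged per probe and per gene. Members without such a spot came from the table of all 29608 genes, on the same scale, with a floor of 1% of the channel median. No spot was saturated.

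Log2 levels were fitted with limma 3.58.1 (R 4.3.3) on phenotype and dye over all 12 samples, with eBayes and an intensity trend, and p-values were adjusted by the Benjamini-Hochberg method over each whole table. A gene was called at an adjusted p under 0.05. The same fit with log2 Ttr as a further term gave the slopes. Exact permutation tests were two-sided and exchanged single mice without regard to array or dye. The steps were tested on simulated data for their mean estimates of differences and slopes. The simulated mice were independent, so shared arrays, the floor and the weak array were not covered. The 6 arrays and 2 mice per array limit the precision. Values by mouse are given for Ttr and each member with an adjusted p under 0.05 in any comparison or slope, up to 14. Kl, Clic6, Igf2 and Enpp2 were added after their values were seen. The members and gene lists were chosen with earlier results of these data known. Alternatives were other background corrections, normalizations, filters, covariates and samples left out. Figures were drawn with matplotlib 3.10.9.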

Additional observations from a re-analysis of the deposited data

How the results depend on the processing

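The rise of Ttr in MRL/lpr kept its direction under every alternative run, and the counts of members called did not keep their size. The count against MRL/+, 2 in the main fit, was 1 with no filter on spots or with spots well above background, 6 with normexp background, 10 with the processed signal, 0 with array as a random block and 18 with sample weights. Without the weak array it was 9 on the same spots, 9 on spots valid in the other 10 mice, 18 with the negative-control level subtracted and 12 with no filter. By the methods' t-test it was 1 before and 0 after Benjamini-Hochberg adjustment. The count against Fn14ko, 8, was 13 with the processed signal, 1 with quantile normalization, 4 with no dye term, 0 with array as a random block, 19 with sample weights, 13 and 18 without the weak array on the same spots and with no filter, 5 with unfiltered members scaled to the median of all spots, and 3 and 0 by the methods' t-test before and after adjustment. Between Fn14ko and MRL/+, 0 became 1 with normexp, 4 with sample weights, 2 by the methods' t-test, and, without the weak array, 3 on the same spots, 2 on spots valid in the others, 1 with negative controls subtracted and 3 with no filter. The number of members following Ttr, 0, became 20 with sample weights, 5 and 9 without the weak array on the same spots and with no filter, 10 with the median of all spots and 3 with array as a fixed block. The cause was not tested.

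Leaving out 1 mouse gave 0 to 12 members against MRL/+, 0 to 23 against Fn14ko, 0 to 1 between Fn14ko and MRL/+ and 0 following Ttr. The highest counts, 12 and 23, came without MRL/lpr mouse 2. The members called lower, 2 of 5 against MRL/+ and 3 of 14 against Fn14ko, came without MRL/lpr mouse 1. The Ttr difference ran from 2.74 to 4.23 against MRL/+, from 2.96 to 4.45 against Fn14ko and from -1.07 to 0.30 between Fn14ko and MRL/+, where it was 0.0057, 0.30 and 0.040 without Fn14ko mouse 3, Fn14ko mouse 4 and MRL/+ mouse 2. Ttr missed the threshold against MRL/+ with quantile normalization (3.54), a random array block (3.33) and the methods' t-test, adjusted or not (3.86). Against Fn14ko it did so with those settings (3.69, 3.55 and 3.29) and the processed signal (3.44). Between Fn14ko and MRL/+ it turned to 0.041 with the processed signal, 0.027 without the weak array on spots valid in the others and 0.57 by the methods' t-test.

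Other members changed direction between Fn14ko and MRL/+, in no case called in the main fit. Sample weights gave 0.52 for Kcne2, 0.62 for Folr1, 0.70 for Sostdc1, 0.65 for Calml4, 0.12 for Cldn2 and 0.37 for Aqp1. Without the weak array and with negative controls subtracted, Kcne2 was 0.71, Folr1 1.74, Lbp 2.22, Sostdc1 1.66, Calml4 1.10, Cldn2 0.47 and Aqp1 0.86. Quantile normalization gave 0.48 for Kcne2, 0.22 for Folr1, 0.38 for Lbp and 0.066 for Aqp1, the processed signal 0.45 for Folr1 and 0.32 for Lbp, and the median of all spots 0.24 for Folr1, 0.058 for Sostdc1 and 0.00287 for Calml4. The slope of Cldn2 on Ttr, below 0 in the main fit, was 0.25 and 0.41 with array as a random and as a fixed block, 0.69 with sample weights, 0.62 with no phenotype term, 0.72 without MRL/lpr mouse 3 and, without the weak array, 0.67 on the same spots or with no filter, 0.76 on spots valid in the others and 0.33 with negative controls subtracted. That last setting turned the slopes of Folr1 and Lbp to -0.030 and -0.19, and normexp that of Aqp1 to -0.014.

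Replicate numbers did not pair the mice: deviations from the phenotype means correlated at -0.64 to 0.37 between same-numbered mice. With the replicate block the counts were 2, 6, 0 and 0, the Ttr differences were as in the main fit, and the slope of Cldn2 was 0.19. The added alternatives, chosen after seeing the data, were negative-control subtraction, no filter without the weak array, and the median of all spots. Dim members on the weak array and in MRL/+ mice 2 and 4 lie near negative controls, which limits every difference that rests on them.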
